A study of Mus musculus with 12 samples.

Results

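The genes described here mark endothelium as arterial or venous, and they were measured in the wall of the inferior vena cava (IVC) 7 days after an aortocaval fistula. They are the ligand Efnb2 and its receptor Ephb4, the venous transcription factor Nr2f2, the Notch ligand Dll4, the receptors Notch1 and Notch4, the Notch effectors Hey1 and Hey2, and the connexins Gja4 and Gja5. They were taken from the count table by gene symbol and make up 10 of its 55414 genes. All 10 passed the filter on low values and are among the 15912 genes tested. The 12 animals were wild-type C57BL/6J mice aged 10 weeks, 3 males and 3 females with an arteriovenous fistula (AVF) and 3 males and 3 females with a sham operation. In the AVF group a needle was passed through the aorta into the IVC, so that arterial blood entered the vein, and in the sham group the vessels were exposed and clamped without the puncture. The whole IVC segment was taken from each animal, so its RNA came from endothelium together with smooth muscle, adventitia and attached fat, and each mouse gave 1 library of poly(A) RNA.

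During development, arterial endothelium expresses ephrin-B2 (Efnb2) and venous endothelium its receptor EphB4 (Ephb4), and signals between the 2 proteins keep the vessel types apart. Notch signaling, in which a ligand such as Dll4 on a neighboring cell releases the intracellular part of Notch1 or Notch4, turns on Hey1 and Hey2 and maintains the arterial program, whereas COUP-TFII, the product of Nr2f2, represses Notch genes in veins. Gja4 (connexin 37) and Gja5 (connexin 40) form the gap junctions that couple arterial endothelial cells. Whether an adult vein keeps its venous program once it carries arterial blood is the question this set of genes addresses.

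Of the 10 identity genes, Gja4 alone passed the test between the AVF and sham groups, with expression 2.02-fold higher in the AVF (95% interval 1.49 to 2.75). Ephb4, Nr2f2, Notch1, Hey1 and Hey2 had estimated changes of at most 1.10-fold, and Gja5, Dll4 and Notch1 had estimates below 0 that did not pass the test. By the quasi-likelihood method of edgeR, with Benjamini-Hochberg adjustment over all tested genes, 1 of the 10 was called higher, against 8.63% of all genes, and 0 were called lower, against 5.13% of all genes. At an unadjusted p under 0.05, 3 of the 10 were higher (Efnb2, Notch4 and Gja4) and 0 lower. Of all 15912 tested genes, 5023 were under 0.05 in either direction. DESeq2 also called 1 of the 10 higher and 0 lower, against 1970 higher and 1432 lower of all 15912 genes. The median log2 fold change of the 10 genes was 0.03, and that of all tested genes -0.01. In RNA from a whole vessel wall, fewer endothelial cells and less RNA per endothelial cell cannot be told apart. The 20 pan-endothelial genes together ranged from 2899 to 3839 normalized CPM (counts scaled by the library size after TMM normalization) in the AVF and from 2649 to 4086 in the sham group.

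Libraries held 15177881 to 22717423 counts, and the identity genes had 46 to 8053 counts in a library, well above the 3 counts taken as the least detected. In sample #07, from a female with an AVF, 46.0% of the counts were ribosomal RNA, against 2.39% to 12.6% in the other 11 libraries. Endothelial markers were present in every library, with 656 ± 53.5 (SD, n = 6) normalized CPM of Pecam1 in the AVF and 759 ± 191 (SD, n = 6) in the sham group. Heart muscle transcripts stood out in sham sample #19, where Myh6 was at 408 normalized CPM and at no more than 0.469 in the other 11 libraries. Liver transcripts stood out in AVF samples #05 and #09, with 1853 and 5594 normalized CPM of Alb, against no more than 2.67 elsewhere.

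Gja4 (ENSMUSG00000050234, GRCm39 chr4:127205214-127207851, minus strand) and Gja5 (ENSMUSG00000057123, GRCm39 chr3:96812009-96984732, plus strand) are the pair of arterial connexins, and their estimates lay at opposite ends of the 10. Their promoters are shown for this reason, although Gja4 alone was called. Each is the 250 bases before the RefSeq transcription start, read on the strand of the gene, from the GRCm38.p6 table of RefSeq and found at 1 place in GRCm39. The start used for Gja4 is 19 bases inside the gene as annotated by GENCODE, and that for Gja5 is 127709 bases inside it. Capitals mark every match on either strand to the core letters of 4 factor families tied to arterial and venous genes, namely TGGGAA of RBPJ, the partner of Notch, CACGTG of the E-box, AGGTCA of nuclear receptors, and CACCC of KLF factors.
Gja4 promoter, chr4:127207833-127208082, minus strand: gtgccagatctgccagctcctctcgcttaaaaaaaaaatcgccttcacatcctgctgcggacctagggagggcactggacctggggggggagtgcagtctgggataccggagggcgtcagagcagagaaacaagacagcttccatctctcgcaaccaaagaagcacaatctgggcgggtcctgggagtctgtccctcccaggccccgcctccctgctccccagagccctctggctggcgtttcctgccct
Gja5 promoter, chr3:96939468-96939717, plus strand: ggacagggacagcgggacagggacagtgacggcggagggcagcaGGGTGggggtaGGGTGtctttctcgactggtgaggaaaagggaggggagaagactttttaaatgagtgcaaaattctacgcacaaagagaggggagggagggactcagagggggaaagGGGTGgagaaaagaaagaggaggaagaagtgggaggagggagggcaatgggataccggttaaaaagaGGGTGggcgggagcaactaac
The Gja4 window held none of the 4 motifs, and the Gja5 window held CACCC 4 times, each on the opposite strand. CACCC was present in 57.5% of the 32851 promoters of 300 bases in the table, which reach 50 bases past the start, and in 7 of the 9 identity genes that have an entry there. TGGGAA was in 25.6% of all promoters and in 1 identity gene, Hey2, which held it 2 times. CACGTG and AGGTCA were in 7.15% and 16.3% of all promoters and in 0 of the 9 identity genes. Hey1 was the gene without an entry.

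**Figure D1:**
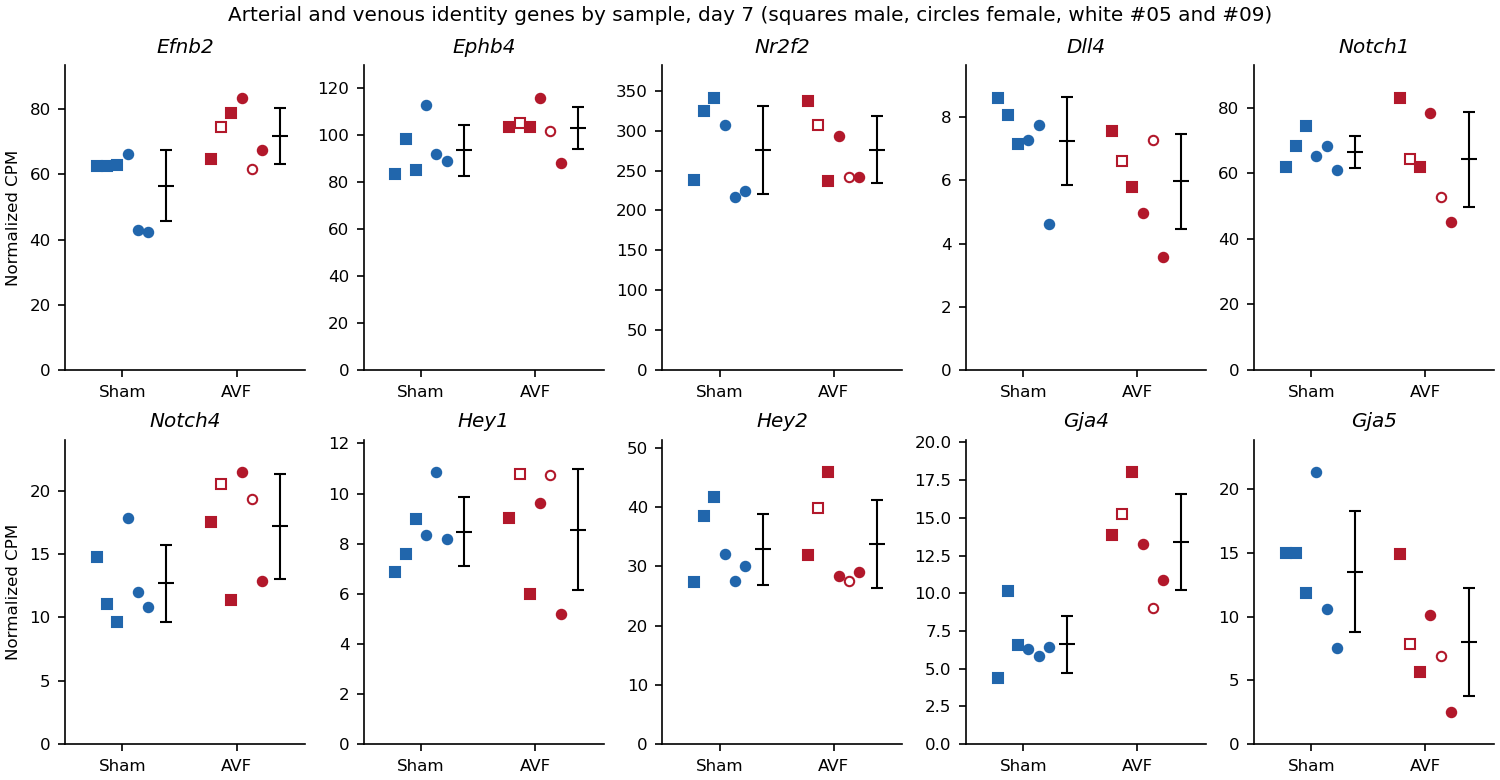
Normalized CPM (y axis, from 0) of the 10 identity genes in each of the 6 sham (blue) and 6 AVF (red) samples, with squares for males, circles for females, white symbols for samples #05 and #09, and bars for the mean and SD of each group. Gja4 is the gene whose groups lie farthest apart, with AVF samples from 9.05 to 18.0 and sham samples from 4.35 to 10.1, while the ranges of Nr2f2 and Hey2 are nearly the same in both groups.

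In the AVF group, Gja4 was at 13.9, 15.2 and 18.0 normalized CPM in the males (samples #04, #05 and #06) and at 13.3, 9.05 and 10.9 in the females (samples #07, #09 and #11). In the sham group, it was at 4.35, 10.1 and 6.61 in the males (samples #16, #17 and #18) and at 6.32, 5.85 and 6.45 in the females (samples #19, #22 and #23). Thus 5 of 6 AVF samples lay above every sham sample, and the groups overlapped only because sample #09 was below sham sample #17. The log2 fold change was 1.02 (SE 0.21, adjusted p = 0.00817, edgeR quasi-likelihood), and 6 of 6 AVF samples were above the sham median of 6.39. Gja4 was called in each of 20 alternative analyses, in which the log2 fold change was 0.91 to 1.17 and the adjusted p value 4.51e-05 to 0.0193, although it was below 2-fold in 5 of them. Summed smooth muscle markers were at 2687 to 5568 normalized CPM in the AVF and at 2989 to 5344 in the sham group. Summed fibroblast markers were at 17351 to 29048 in the AVF and at 8462 to 16798 in the sham group. Which cells of the wall gave the Gja4 values was not tested.

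Gja5 was at 14.9, 7.84 and 5.62 normalized CPM in the male AVF samples #04, #05 and #06 and at 10.1, 6.91 and 2.49 in the female AVF samples #07, #09 and #11. The lowest, median and highest of the sham values were 7.51 (sample #23), 13.4 and 21.3 (sample #19). The groups overlapped, with 3 of 6 AVF samples below every sham sample and 5 of 6 below the sham median. The mean was 7.98 ± 4.22 (SD, n = 6) in the AVF and 13.5 ± 4.75 (SD, n = 6) in the sham group, and the estimate of -0.77 on the log2 scale (SE 0.36, 95% interval -1.54 to 0.00, adjusted p = 0.160, edgeR quasi-likelihood) did not pass the threshold. The highest value was that of sample #19, the library with heart muscle transcripts, and atrial muscle also uses Gja5. Without sample #19 the log2 fold change was -0.59 (adjusted p = 0.296, edgeR quasi-likelihood). Myh6, Myl7 and Nppa were at no more than 0.469 normalized CPM in the remaining libraries. The 8 heart muscle markers together were at 45.3 to 97.9 there and at 1015 in sample #19. Brown fat markers were also lower in the AVF, at 54.4 to 352 summed normalized CPM against 134 to 1922 (sample #19) in the sham group, with 4 of 8 called lower. The part of heart muscle or brown fat in the values of Gja5 was not tested.

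The ratio of Gja4 to Gja5 put the connexins on 1 scale within each library, and it was examined after the values were seen, so it carries no test. It had a lowest value of 0.931, a median of 1.63 and a highest value of 4.38 in the AVF group. In the sham group these values were 0.290, 0.556 and 0.858. The ranges did not overlap, and the gap between them was small, from 0.858 in sample #23 to 0.931 in sample #04. The CPM were not divided by gene length, so a ratio of 1 does not mark equal levels. Per kb of annotated exon, the sham means were 3.07 for Gja4 and 2.27 for Gja5. With the longest transcript as the length they were 3.46 and 3.69.

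**Figure D2:**
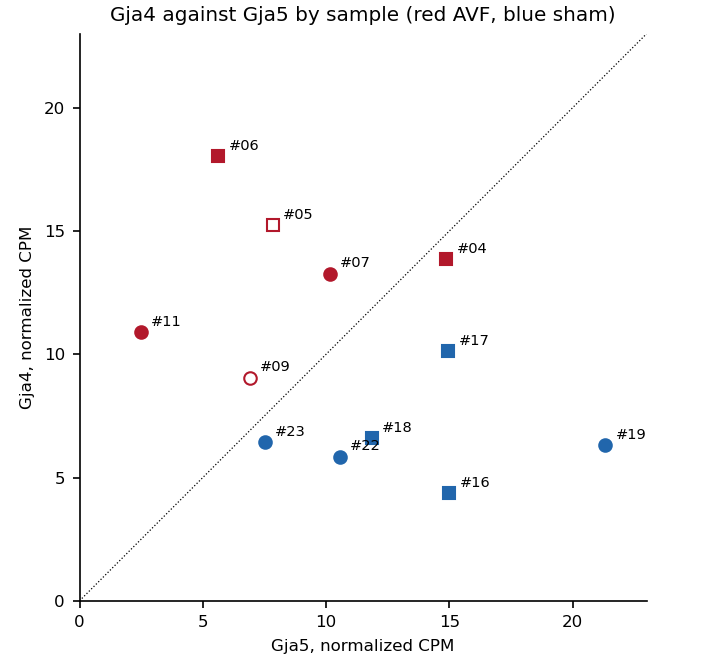
Gja4 (y axis) against Gja5 (x axis) in normalized CPM for each of the 12 samples, with red for AVF, blue for sham, squares for males, circles for females, white symbols for #05 and #09, and a dotted line where the genes are equal. All 6 sham samples lie below the line, and 5 of 6 AVF samples lie above it, with sample #04 just below at a ratio of 0.931.

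Efnb2 (ENSMUSG00000001300, chr8:8667226-8711249, minus strand), the arterial ephrin, had a lowest value of 61.8, a median of 71.1 and a highest value of 83.5 normalized CPM in the AVF group. In the sham group these were 42.3, 62.7 and 66.3, and the 2 lowest of all 12 samples were the sham females #22 and #23. The AVF group was above every sham sample in 4 of 6 mice. The log2 fold change was 0.34 (SE 0.13, 95% interval 0.06 to 0.63, adjusted p = 0.0941, edgeR quasi-likelihood), which did not pass the threshold after adjustment. The span of Efnb2 holds 3 other gene models on its strand, and that of Notch1 holds 1, so some of their reads may be divided with these models.

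Ephb4 (ENSMUSG00000029710, chr5:137348274-137376931, plus strand), the receptor of Efnb2 on venous endothelium, was at 88.0, 103 and 116 normalized CPM (lowest, median and highest) in the AVF and at 83.5, 90.6 and 113 in the sham group. The log2 fold change of 0.14 (95% interval -0.05 to 0.33, adjusted p = 0.305, edgeR quasi-likelihood) did not pass the threshold, and the interval holds changes of 0.964-fold to 1.26-fold. Within libraries, the ratio of Efnb2 to Ephb4 was 0.607 to 0.768 in the AVF and 0.467 to 0.749 in the sham group, with means on the log2 scale of -0.52 ± 0.14 (SD, n = 6) and -0.74 ± 0.30 (SD, n = 6). The ephrin was below its receptor in all 12 samples by counts, and the ranges of the ratio overlapped.

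Nr2f2 (ENSMUSG00000030551, chr7:70001692-70016519, minus strand), which encodes the repressor of Notch genes in veins and is also expressed in stromal cells, did not differ detectably. Its lowest, median and highest values were 237, 267 and 337 normalized CPM in the AVF and 217, 273 and 341 in the sham group. The log2 fold change was 0.00 (SE 0.14, adjusted p = 0.990, edgeR quasi-likelihood), and its 95% interval of -0.30 to 0.31 leaves out a change of 1.24-fold or more in either direction.

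Dll4 (ENSMUSG00000027314, chr2:119156170-119166443, plus strand), the Notch ligand of arterial and sprouting endothelium, was at 3.57, 6.21 and 7.55 normalized CPM (lowest, median and highest) in the AVF and at 4.61, 7.51 and 8.61 in the sham group. The AVF value was below the sham median in 5 of 6 samples, but the log2 fold change of -0.28 (SE 0.20, adjusted p = 0.360, edgeR quasi-likelihood) was within the spread of the samples. Sample #23 lay apart from the other sham samples, at 4.61 against at least 7.16.

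Notch1 (ENSMUSG00000026923, chr2:26347915-26406675, minus strand) had similar means of 64.3 and 66.5 normalized CPM in the AVF and sham groups, with a wider spread in the AVF, where the SD was 14.5 (n = 6) against 4.92 (n = 6). Its AVF values ran from 45.2 to 83.0 around a median of 63.1, past the sham range of 61.1 to 74.4 at both ends, and the estimate was -0.05 on the log2 scale (adjusted p = 0.830, edgeR quasi-likelihood). Notch4 (ENSMUSG00000015468, chr17:34783220-34807477, plus strand), the receptor largely restricted to endothelium, was at 11.4, 18.4 and 21.5 normalized CPM (lowest, median and highest) in the AVF and at 9.66, 11.5 and 17.8 in the sham group. The Notch4 value was above the sham median in 5 of 6 AVF samples, and its log2 fold change of 0.44 (SE 0.19, adjusted p = 0.136, edgeR quasi-likelihood) did not pass the threshold after adjustment.

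Hey1 (ENSMUSG00000040289, chr3:8726956-8732385, minus strand) and Hey2 (ENSMUSG00000019789, chr10:30708350-30718828, minus strand) encode transcriptional repressors induced by Notch. Hey1 was at 5.21, 9.32 and 10.8 normalized CPM (lowest, median and highest) in the AVF and at 6.86, 8.28 and 10.9 in the sham group, with a log2 fold change of 0.01 (SE 0.19, adjusted p = 0.976, edgeR quasi-likelihood). Hey2 was at 27.4, 30.5 and 45.9 in the AVF and at 27.3, 31.0 and 41.7 in the sham group, with a log2 fold change of 0.04 (SE 0.15, adjusted p = 0.886, edgeR quasi-likelihood). The groups overlapped almost completely for Hey2, and the 2 lowest AVF values of Hey1 (samples #06 and #11) were below every sham sample. Hey1 had no stable direction, since its estimate was negative in 9 of 20 alternative analyses.

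**Figure D3:**
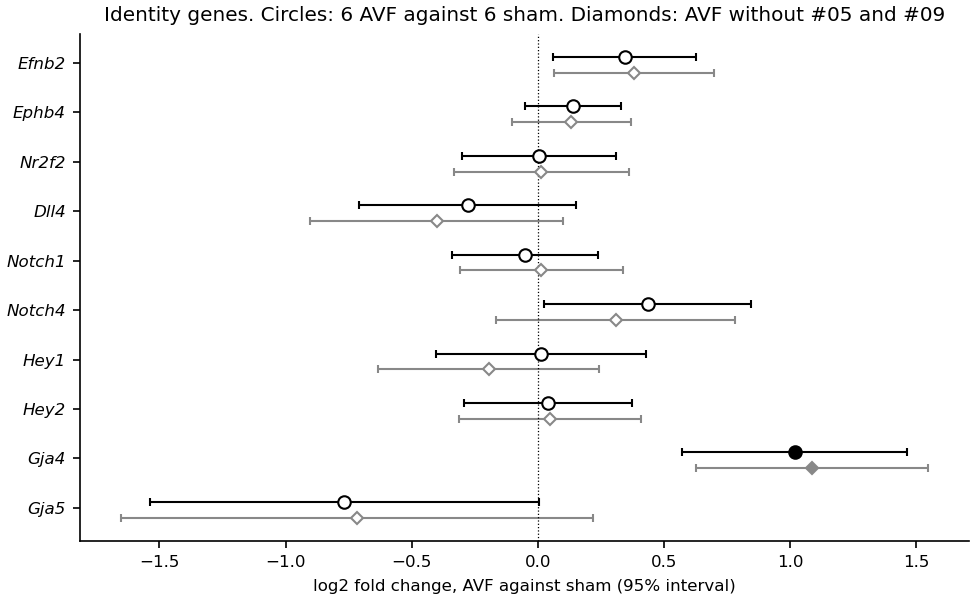
Log2 fold change of AVF against sham (x axis) with the 95% interval for the 10 identity genes, with circles for all 6 AVF samples, diamonds for the AVF group without samples #05 and #09, and filled symbols for an adjusted p value under 0.05. Gja4 is filled in both analyses, at 1.02 and 1.09, and the intervals of Nr2f2, Notch1, Hey1 and Hey2 are centered near 0.

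Levels of different genes were compared as normalized CPM per kb of annotated exon, and the order in the sham veins was Nr2f2, Ephb4, Efnb2, Hey2, Notch1, Gja4, Gja5, Dll4, Hey1 and Notch4. Nr2f2 at 29.3 and Ephb4 at 18.6 CPM per kb were highest, followed by Efnb2 at 7.82, Hey2 at 6.69 and Notch1 at 4.67. Nr2f2 is also expressed in stromal cells, and which cells of the wall gave these levels was not tested. Gja4 and Gja5 were at 3.07 and 2.27 CPM per kb, and Dll4, Hey1 and Notch4 were between 1.43 and 1.84. In this order, the ranges of neighbors did not overlap from Nr2f2 to Ephb4, from Ephb4 to Efnb2 and from Hey2 to Notch1. The neighboring pairs Efnb2 and Hey2, Notch1 and Gja4, Gja4 and Gja5, Gja5 and Dll4, Dll4 and Hey1, and Hey1 and Notch4 overlapped. In the AVF group, Gja4 was at 6.21 CPM per kb, above the mean of Notch1 at 4.52, and Gja5 at 1.34 had the lowest mean of the 10 by this length, while with the longest transcript Dll4 at 1.55 was below Gja5 at 2.18. With the longest transcript as the length, Nr2f2 was at 65.2 CPM per kb in the sham group, Hey2 at 12.7 was above Efnb2 at 11.3, and Gja5 at 3.69 was above Gja4 at 3.46.

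**Figure D4:**
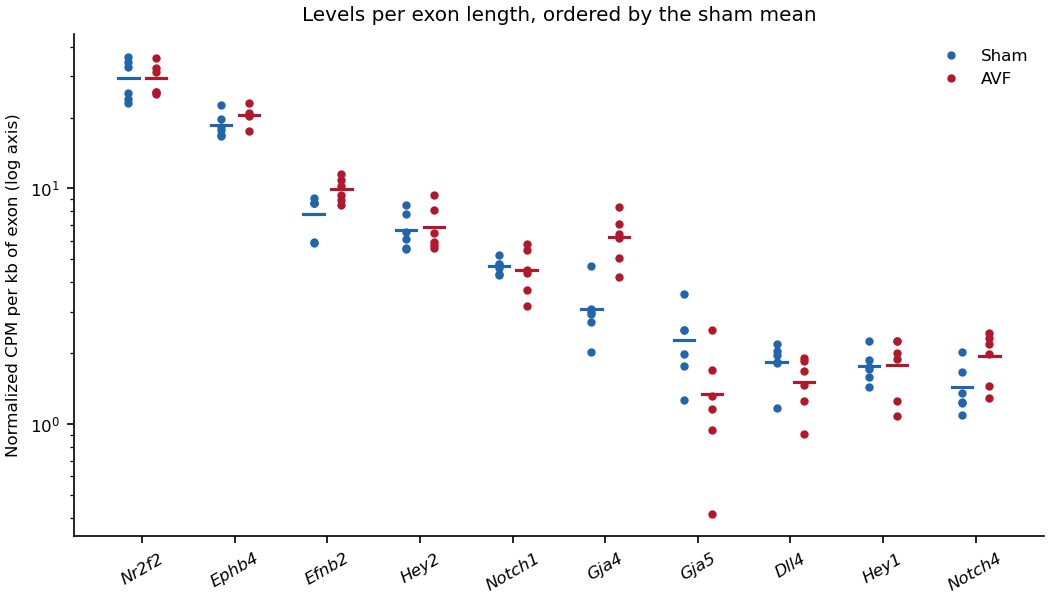
Normalized CPM per kb of exon (y axis, log scale) of the 10 identity genes in each sham (blue) and AVF (red) sample, with a line at each mean, ordered by the sham mean. Nr2f2 is highest at 29.3 and Notch4 lowest at 1.43 in the sham group, and Gja4 moves from 3.07 in the sham group to 6.21 in the AVF group.

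Each identity gene was also set against the endothelium of its own library, as its log2 CPM minus the mean log2 CPM of the 20 pan-endothelial genes. On this scale the AVF minus sham difference was 1.05 (SE 0.23) for Gja4, 0.46 (SE 0.16) for Notch4, 0.39 (SE 0.11) for Efnb2 and -0.85 (SE 0.34) for Gja5. The other 6 genes differed by -0.27 to 0.17. These differences are descriptions of the same samples and were not tested. How much of the RNA of each gene came from endothelium was not measured, so the differences are not changes per endothelial cell. With the summed CPM of the same list as the reference, Gja4 differed by 1.02 and Gja5 by -0.87.

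The study divided its AVF samples by their expression profiles into a group called OUT (samples #05 and #09) and a group called nAVF (samples #04, #06, #07 and #11), and the labels of the samples do not name these groups. The identity genes were described side by side for them and not tested. For 6 of the 10 genes both OUT values fell within the range of the 4 nAVF values. For Hey1 both OUT values, 10.8 and 10.8 normalized CPM, were above all nAVF values (5.21 to 9.60). The share of all genes with this pattern was not counted, so it is not read as a trait of the OUT group. For Efnb2, Hey2 and Gja4, sample #09 was below the 4 nAVF samples and sample #05 was within their range. With these libraries left out, Gja4 was the only identity gene called, at 1.09 on the log2 scale (adjusted p = 0.0114, edgeR quasi-likelihood), in an analysis that called 5.87% of all genes higher and 2.05% lower.

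The effect of the AVF was compared between males and females by the interaction of operation and sex. None of the 10 genes was called (edgeR quasi-likelihood), against 0% of all genes. DESeq2 called 0 of the 10, against 4 higher and 1 lower of all 15912 genes. An unadjusted p value under 0.05 was found for 0 of the 10 and for 813 of all 15912 genes. Gja4 was at 15.7 ± 2.13 (SD, n = 3) normalized CPM in male and 11.1 ± 2.12 (SD, n = 3) in female AVF, and at 7.03 ± 2.91 (SD, n = 3) in male and 6.21 ± 0.315 (SD, n = 3) in female sham mice. Its change in females minus that in males was -0.33 on the log2 scale, with a 95% interval of -1.16 to 0.50 (adjusted p = 0.943, edgeR quasi-likelihood). A change smaller in females by about the size of the Gja4 change itself remains within the interval, and one larger by that size does not. Between female and male AVF, 0 of the 10 genes were called, against 0.0314% of all genes. DESeq2 called 0 of the 10, against 19 higher and 30 lower of all 15912 genes. An unadjusted p value under 0.05 was found for 752 of all 15912 genes and for 1 of the 10. That gene was Hey2, at 28.2 ± 0.813 (SD, n = 3) in females and 39.2 ± 7.01 (SD, n = 3) normalized CPM in males, the estimate being -0.47 on the log2 scale (adjusted p = 0.960, edgeR quasi-likelihood).

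Among other genes of the Notch pathway, 4 of 31 tested were called higher and 0 lower, against 8.63% and 5.13% of all genes. The median log2 fold change of the list was 0.18, and 1 gene of it, Hes5, did not pass the filter on low values. At an unadjusted p under 0.05, 9 were higher and 1 lower, against 5023 of all 15912 genes in either direction. DESeq2 called 7 higher and 1 lower, against 1970 higher and 1432 lower of all 15912 genes. The largest change was that of Heyl, a relative of Hey1 and Hey2 that responds to Notch in smooth muscle and pericytes. Heyl was at 57.1, 75.2 and 91.5 normalized CPM (lowest, median and highest) in the AVF and at 24.0, 33.6 and 42.3 in the sham group, and the groups did not overlap, as for 4.55% of all genes in this direction. Its log2 fold change was 1.16 (SE 0.16, adjusted p = 0.0012, edgeR quasi-likelihood), beside 0.01 and 0.04 for Hey1 and Hey2. With a library left out, 2 to 7 genes of the Notch list were called, with 2 called without #04, #16, #17, #22 or #23 and 7 without #09. Macrophage markers (6 of 8 higher, at 1077 to 1750 summed normalized CPM in the AVF and 565 to 928 in the sham group) and fibroblast markers (6 of 8 higher) moved with the groups too, and their part in the values of the Notch list was not tested.

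The other called Notch genes were Adam17 (0.38), a protease that can cleave Notch receptors, the ligand Jag1 (0.40) and Mib1 (0.34), a ubiquitin ligase by which cells take up Notch ligands. These values are log2 fold changes, with adjusted p values of 0.0137, 0.0373 and 0.0464 (edgeR quasi-likelihood). Jag1 and Mib1 were not called in 12 and 14 of the 20 alternative analyses, and Adam17 in 1. The receptors Notch2 and Notch3 had log2 fold changes of 0.26 and 0.35 that did not pass the threshold (adjusted p = 0.202 and 0.320, edgeR quasi-likelihood).

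The other ephrins and Eph receptors had 0 of 15 tested genes called by edgeR, against 8.63% of all genes higher and 5.13% lower. Their median log2 fold change was -0.01. At an unadjusted p under 0.05, 3 were higher (Epha1, Epha3 and Ephb2) and 2 lower (Epha4 and Epha5), against 5023 of all 15912 genes in either direction. DESeq2 called 1 higher, against 1970 of all 15912 genes. The choice to name these 5 genes was made with their values known, and the 4 genes Efna3, Efna4, Epha6 and Epha8 were below the filter.

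Among further genes of arterial endothelium, 3 of 20 were called higher and 2 lower, against 8.63% and 5.13% of all genes. The median log2 fold change of the list was 0.05. Fbln5, an elastic fiber protein, was at 286, 422 and 517 normalized CPM (lowest, median and highest) in the AVF and at 168, 195 and 229 in the sham group. Igfbp3, a binding protein of insulin-like growth factors, was at 34.1, 49.0 and 81.1 in the AVF and at 92.7, 128 and 270 in the sham group. Neither gene overlapped between the groups, as for 4.55% of all genes in the direction of Fbln5 and 1.51% in that of Igfbp3. The log2 fold changes were 1.06 and -1.60 (adjusted p = 0.00125 and 0.00469, edgeR quasi-likelihood). The netrin receptor Unc5b was also called higher (0.89, adjusted p = 0.0253, edgeR quasi-likelihood), as was Jag1, and the secreted semaphorin Sema3g was called lower (-0.61, adjusted p = 0.0273, edgeR quasi-likelihood). Fibroblasts and smooth muscle cells also make Fbln5, and 6 of 8 fibroblast markers were higher in the AVF, at 17351 to 29048 summed normalized CPM against 8462 to 16798 in the sham group, with their part in the Fbln5 values not tested. With a library left out, 2 to 7 of the arterial genes were called, with 2 called without #16 and 3 without #05, #22 or #23. Sema3g was not called in 6 of 20 alternative analyses, among them that without both #05 and #09 (adjusted p = 0.0788, edgeR quasi-likelihood).

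Among further genes of venous endothelium, 4 of 18 were called higher and 2 lower, against 8.63% and 5.13% of all genes. The median log2 fold change of the list was 0.02. The carboxypeptidase Prcp was at 70.5 to 91.5 normalized CPM in the AVF and at 35.8 to 57.6 in the sham group. Its groups did not overlap, as for 4.55% of all genes in this direction. The estimate for Prcp was 0.81 on the log2 scale (adjusted p = 0.00125, edgeR quasi-likelihood). Ackr1, the decoy chemokine receptor of venules, was at 3.80 to 5.21 in the AVF and at 5.33 to 8.80 in the sham group, also without overlap, as for 1.51% of all genes in this direction, the estimate being -0.59 on the log2 scale (adjusted p = 0.0212, edgeR quasi-likelihood). The lymphatic and venous receptor Flt4 (0.45), Tmem252 (0.51) and the growth factor Bmp4 (0.70) were called higher, and Ehd4 (-0.45), which acts in endocytic recycling, was called lower, with adjusted p values of 0.0216 to 0.0457 (edgeR quasi-likelihood). Without samples #05 and #09, Flt4, Tmem252 and Ehd4 were not called, and 3 venous genes were. Of these, 2 were higher and 1 lower, against 5.87% and 2.05% of all genes. Of 20 alternative analyses, Bmp4 was not called in 13 and Tmem252 in 10. Lymphatic endothelial markers (1 of 6 called higher) were at 452 to 658 summed normalized CPM in the AVF and at 315 to 557 in the sham group. The part of lymphatic endothelium, fibroblasts and macrophages in the values of the venous list was not tested.

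Among the other connexins, 1 of 8 tested was called higher and 0 lower, against 8.63% and 5.13% of all genes. It was Gjb1, the connexin of liver cells, with 12.8 normalized CPM in sample #05, 31.7 in sample #09 and no more than 0.362 in the other 10 libraries. The same 2 libraries held the liver transcripts. Gja1 (connexin 43), which smooth muscle, fibroblasts and endothelium share, was at 60.1 to 124 in the AVF and at 49.0 to 192 in the sham group, with a log2 fold change of -0.39 (SE 0.31, adjusted p = 0.422, edgeR quasi-likelihood). Of the 20 pan-endothelial genes, 1 was called higher, Eng (0.47), a co-receptor of the TGF-beta family, against 8.63% of all genes. Another 1 was called lower, Mmrn2 (-0.56), an endothelial matrix protein, against 5.13% of all genes. Their adjusted p values were 0.0239 and 0.0180 (edgeR quasi-likelihood), and the median log2 fold change of the 20 genes was -0.02. Of the 17 genes called over the 6 lists, Heyl, Fbln5, Igfbp3, Prcp and Mmrn2 were called in all 20 alternative analyses, and the other 12 were not called in 1 to 14 of the alternatives that gave a value.

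**Figure D5:**
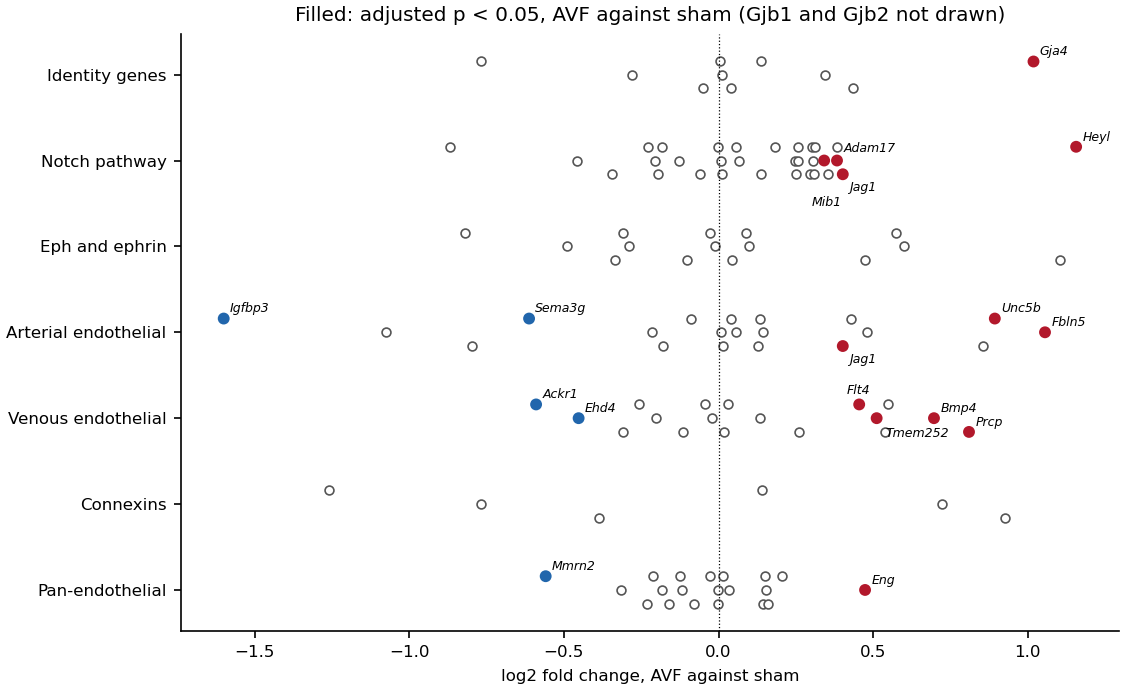
Log2 fold change of AVF against sham (x axis) of the 10 identity genes and of the tested genes of 6 companion lists, 1 point per gene, with genes called at an adjusted p value under 0.05 filled (red higher, blue lower) and named. Called genes lie on both sides of 0 in the arterial, venous and pan-endothelial lists and only above 0 in the Notch list, with Gja4 at 1.02 and Heyl at 1.16. The vertical position within a list has no meaning, and Gjb1 and Gjb2 are left out, at 5.13 and 4.03.

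Once the mean of each operation group was subtracted, Gja4 varied over the 12 samples most like Cys1 (Pearson's r = 0.917), Ankrd12 (0.883) and Pcdhgb1 (0.882), and Gja5 most like Ets1 (0.941), Ccdc85b (0.939) and Ets2 (0.937). These are the highest of 15912 genes, share the libraries and their depth, and are given as a description with no p value. Among the 10 identity genes, the same measure was highest for Gja4 with Hey2 (0.778) and for Gja5 with Notch1 (0.769) and Dll4 (0.734), and it was 0.159 for Gja4 with Gja5.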

How the data were processed

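RNA from the IVC of 12 mice was sequenced, and the authors deposited expected counts per gene, which RSEM 1.3.3 estimated by strand after trimming (Trimmomatic 0.39) and alignment with STAR 2.7.7a to GRCm39. The values were not normalized, and 5.72% to 7.75% of those of a library were not whole. Gene names, positions and exon lengths came from GENCODE M39 (54749 of 55414 identifiers matched). Groups came from the labels, OUT and nAVF from the text of the study.

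The filter kept genes above 1 CPM in 2 samples or more. Counts were rounded, normalized by TMM and tested in edgeR 4.0.16 (R 4.3.3, quasi-likelihood, all samples of the compared groups), with Benjamini-Hochberg adjustment over the tested genes and a threshold of 0.05. Normalized CPM use the normalized library size. Log2 levels used a prior count of 1. SE is the standard error. Counting limits cover counting error only. In the 12 pairs of libraries of the same operation and sex, the chi-square over its degrees of freedom was 36.8 to 613, beyond sampling noise, and other pairs were not compared. Tests were checked on simulated counts.

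The identity genes and lists were chosen with earlier results of these data known. Genes named from a list are the called genes of lowest adjusted p, up to 5 a direction, with Notch2, Notch3, Jag1 and Gja1 in any case. Alternatives were the exact test, DESeq2 1.42.0, RLE size factors, a filter of 12 counts in total, no filter, sex as a covariate, the replicate number as a block, AVF without #05 and #09, and each sample left out. Protein sequences were not used here.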

Additional observations from a re-analysis of the deposited data

Results flagged for a closer look

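Among the identity genes and the named genes of the lists, 30 genes were searched in the AVF and sham groups for a sample far from the other 5, and 2 of 60 groups held one, by the ratio of the gap to the range (critical value 0.625 for 6 samples), where chance gives about 1 in 20. Dll4 in sham sample #23 was at 4.61 normalized CPM, below the next value of 7.16, a ratio of 0.637. Adam17 in AVF sample #11 was at 72.9, below the next value of 88.7, a ratio of 0.771. No identity gene or named gene moved in opposite directions in males and females in every sample.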

How the results depend on the processing

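Of 200 pairs of an identity gene and an alternative for AVF against sham, 177 kept both direction and side of the threshold. With the replicate block (mice of the same sex and number as pairs), 3 identity genes were called, adding Efnb2 (log2 fold change 0.36, adjusted p = 0.0399) and Gja5 (-0.87, adjusted p = 0.0263) to Gja4. The same block called 1306 genes higher and 674 lower of all 15912 genes. The replicate numbers may not mark pairs: the correlations of the deviations of same-numbered mice were -0.144 to 0.175 over 6 pairs, 3 were over 0.1, and 6 of 12 samples correlated best with their own number. Each sample was compared with only the 3 mice of its sex in the other group, so some of these matches can arise without pairing. Genes near 0 changed sign. Nr2f2 was at -0.0084 with the filter of 12 counts and at -0.061 to 0.069 with samples left out, Notch1 at 0.012 without #05 and #09 and at -0.14 to 0.030, Hey2 at -0.066 to 0.11, and Hey1 at -0.0040 with the filter of 12 counts, -0.023 with the block, -0.20 without #05 and #09 and at -0.072 to 0.12. The number of identity genes called was 1 with any sample left out, and 0 for the sex comparisons under each alternative run. The 17 genes called over the 6 companion lists became 27 with DESeq2 and 9 to 26 with a sample left out, with 26 without #07, the library rich in ribosomal RNA, and 9 without sham sample #16, and the cause was not tested. Without #05, without #09 and without both, Gjb1 did not pass the filter and has no value. With 3 mice of each sex in a group, the precision of the sex comparisons is limited.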
